A study of Sus scrofa with 3 samples.

Results

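Genes for proteins of the mitochondrial ribosome and of the protein import machinery were followed across 3 minipig lung arrays. The members are the probe sets of an Affymetrix porcine expression array whose annotation gives a single gene symbol made of MRPL, MRPS, TIMM or TOMM and a number. The rule took 99 probe sets for 76 genes out of 6765 named genes. By symbol, they comprise 36 genes of the large ribosomal subunit (MRPL) and 22 of the small subunit (MRPS). The others are 11 of the inner membrane translocases (TIMM) and 7 of the outer membrane translocase and its partners (TOMM). In the operated lung, on the left, the pulmonary artery had been occluded and then released, with the bronchus spared so that ventilation went on (ischemia-reperfusion, I-R). The non-operated lung came from the right side after that same surgery, and the sham lung from a sham minipig. The sources used here do not give breed, age, the length of occlusion and reperfusion, or whether both I-R lungs were taken from 1 animal. All animals were kept free of specific pathogens. With 1 array per group, none of the differences could be checked against replicates, and no p-value is given.

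Mitochondria carry a small genome whose messages encode core subunits of the respiratory chain and ATP synthase, and they translate these on ribosomes of their own. All proteins of that ribosome are encoded in the nucleus, made in the cytosol and imported. Import starts at the TOM complex of the outer membrane, where receptors such as TOMM20, TOMM22 and TOMM70 bind the precursors. Small TIM chaperones then escort hydrophobic precursors across the space between the membranes, and the TIM translocases pass proteins into or through the inner membrane. In the lung these genes are active in every cell type.

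The values are MAS5 signals, which Affymetrix software computes by scaling each array and condensing the probes of a set into 1 number. The deposited values are on the log2 scale, and signals below are given on the linear scale. The median signal of each array, 158.7 in the operated, 158.6 in the non-operated and 160.7 in the sham lung, served as a floor under which values have no order. A gene read by more than 1 probe set is represented by its brightest, judged on the mean over the 3 arrays. Of the 76 members, 70 lay above the floor on all 3 arrays, 5 (MRPL4, MRPL24, MRPL54, MRPS30 and TOMM70) on some and TIMM44 on 0. The surfactant gene SFTPC, which defines alveolar type 2 cells, had signals of 23424, 24073 and 22178 in the operated, non-operated and sham lung.

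Most members had slightly lower signals in both lungs after ischemia-reperfusion than in the sham lung. Over all 76 members, with no floor, the median log2 ratio was -0.42 for operated against sham and -0.46 for non-operated against sham, beside -0.12 and -0.095 over the 6765 named genes. In the operated lung 69 of 76 members lay below the sham signal, against a background of 56.6% of named genes. In the non-operated lung 68 of 76 did, against 54.9%. Their summed signal was 53440 in the operated lung, 51830 in the non-operated lung and 71640 in the sham lung, so the operated and non-operated sums were 74.6% and 72.3% of sham. Both comparisons use the same sham array, so the non-operated ratios are not a second measurement of the operated ones.

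The shift stayed under 2-fold for most members, and its spread across them was narrower than across all named genes. The middle 50 percent of member log2 ratios spanned 0.40 for operated against sham, beside 0.998 for all named genes without a floor. With the floor, which leaves out the dimmest genes, the spans were 0.40 and 0.86. With the floor, 4 of 75 members counted were lower by 2-fold or more in the operated lung (background 8.79%) and 0 of 75 at least 2-fold higher (background 8.65%). In the non-operated lung 7 of 75 were at least 2-fold lower (background 8.55%) and 0 higher (background 8.96%). The shares beyond 2-fold on the lower side were therefore near the background. MRPL4 and MRPS30, in both counts, were above the floor in the sham lung only, so they could only come out lower. Of the 70 members above the floor on all 3 arrays, 2 in the operated and 5 in the non-operated lung were beyond 2-fold. Among all named genes so restricted, 732 and 733 of 4489 were. At 1.5-fold, 23 of 75 were lower in the operated lung (background 21.7%) and 0 higher (background 16.7%), and 26 were lower in the non-operated lung (background 21.4%) and 1 higher (background 17.5%). Relative to the median of all named genes in each comparison, 64 of 75 members were lower in the operated lung and 66 of 75 in the non-operated lung, where the background is 50% by construction.

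**Figure D1:**
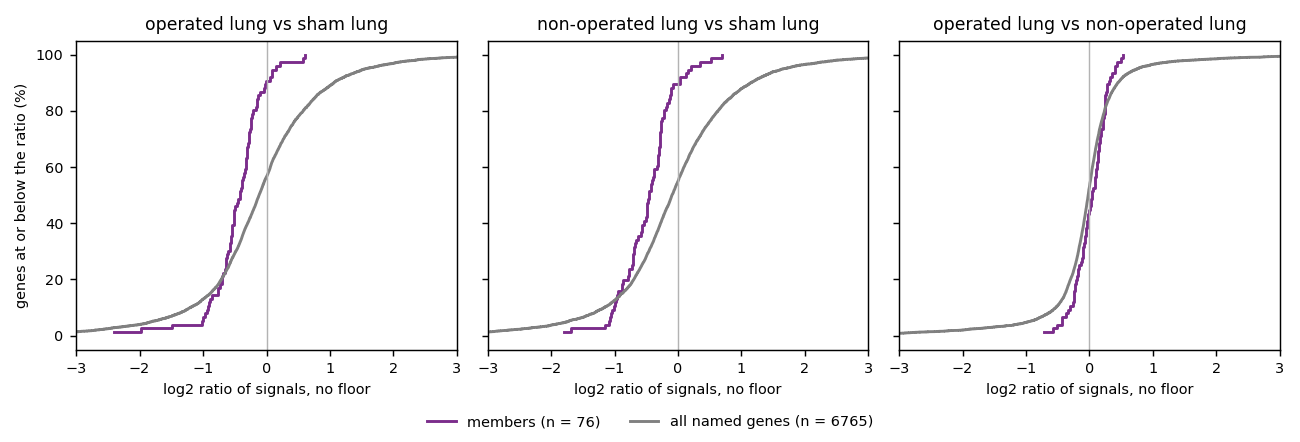
Cumulative share of genes (vertical axis, percent) at or below each log2 ratio of signals (horizontal axis, no floor) for the 76 members and all 6765 named genes in the 3 comparisons. The member curve lies left of 0 for 69 of 76 genes in operated against sham and 68 of 76 in non-operated against sham, and crosses 0 near its middle between the ischemia-reperfusion lungs.

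The large subunit holds the centre where peptide bonds form. Its 36 genes had a median log2 ratio of -0.48 for operated against sham and -0.44 for non-operated against sham. With the floor, 32 lay below sham in the operated lung (background 57.7%) and 31 in the non-operated lung (background 56.6%). MRPL4 was the large subunit gene past 2-fold in the operated lung, with signals of 85.0 in the operated, 139.9 in the non-operated and 452 in the sham lung. Both ischemia-reperfusion values lie under the floor, so MRPL4 was at least 2.85-fold lower in either lung.

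MRPL19 stood just inside 2-fold, with signals of 497 and 502 in the operated and non-operated lung against 989.8 in the sham lung. MRPL35 had signals of 898 and 682 against 1451 in sham, and was 2.13-fold lower in the non-operated lung and 1.62-fold lower in the operated lung. MRPL32, whose maturation by a mitochondrial protease precedes ribosome assembly in yeast and mouse, had signals of 282 and 232 against 482.5 in sham. Its ratio reached 2-fold in the non-operated lung (2.08-fold lower), not in the operated lung (1.71-fold lower). A second MRPL32 probe set above the floor had 241 and 188 against 230.3 in sham, log2 ratios of 0.07 and -0.29, and the mean of both probe sets was -0.67 in the non-operated lung, short of 2-fold.

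MRPL11, a protein of the stalk base where translation factors dock, had signals of 361 and 488 in the operated and non-operated lung against 686 in the sham lung. MRPL58, a peptidyl-tRNA hydrolase that frees stalled ribosomes and is also built into the large subunit, had 342 and 440.1 against 637. Each of these had its lowest signal in the operated lung and its highest in the sham lung. MRPL3 had 1945 and 1633 against 2263 in sham, which made it 1.16-fold and 1.39-fold lower. A second MRPL3 probe set above the floor had 728 and 502 against 891, 1.22-fold and 1.78-fold lower.

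Few large subunit genes were on the other side. MRPL53 had signals of 1533 in the operated and 1490 in the non-operated lung against 1034 in the sham lung, 1.48-fold and 1.44-fold higher. MRPL24 had 241 and 257 against 159 in sham, a value just under the floor, so its log2 ratios of 0.58 and 0.68 are lower bounds. MRPL33 had 733 and 772 against 692, with log2 ratios of 0.08 and 0.16. Its other probe set above the floor had 921 and 669 against 576.0 in sham, with log2 ratios of 0.68 and 0.22. MRPL17 lay at 1116 in the operated lung and 793 in the non-operated lung, on either side of 960.2 in sham. MRPL28 gave 692, 705 and 694, nearly the same on all 3 arrays.

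Proteins numbered up to 36 in the large subunit have bacterial counterparts, whereas most of those with higher numbers were added in the mitochondrial lineage. The 21 genes of the first kind had median log2 ratios of -0.46 and -0.47 for operated and non-operated against sham. The 15 genes of the second kind had -0.49 and -0.37. The medians of these classes differed by less than the middle spread within each.

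**Figure D2:**
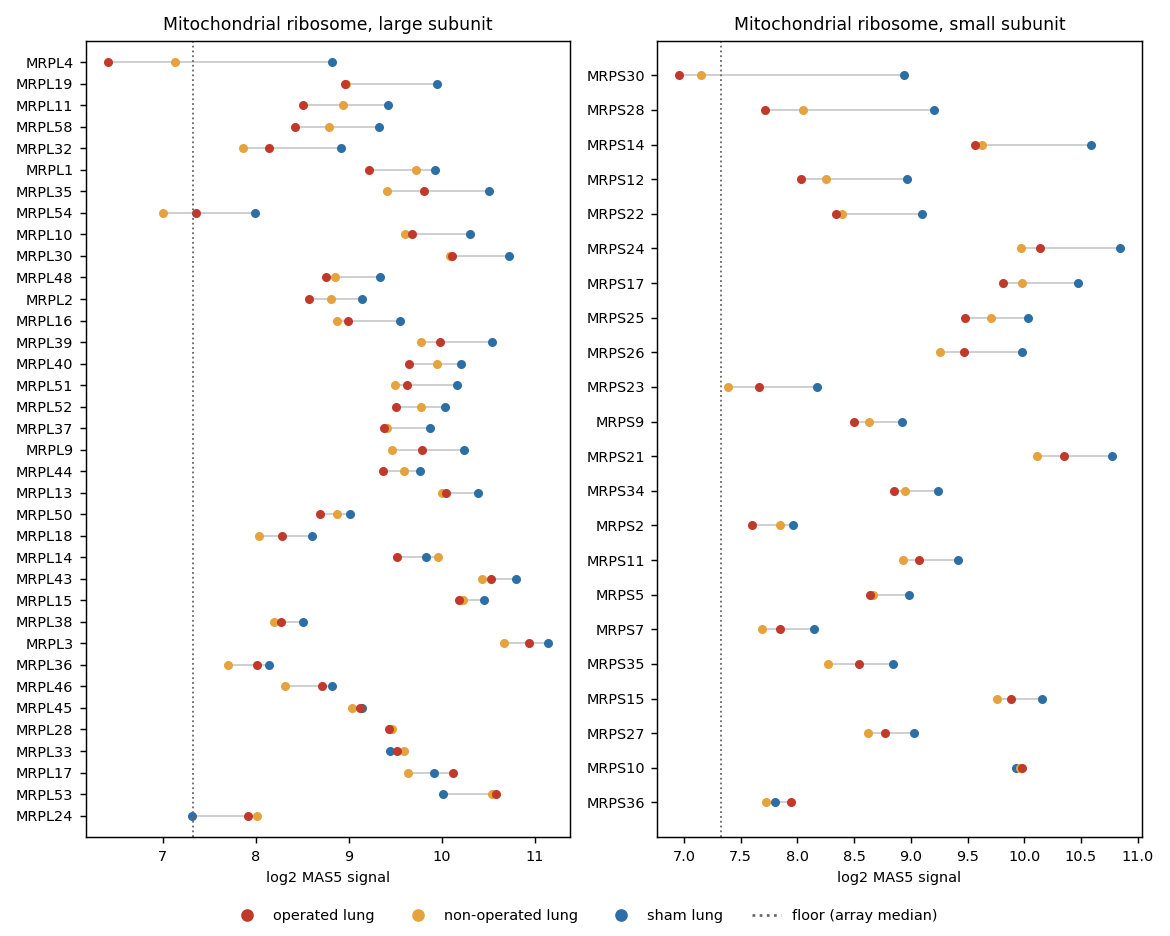
Log2 MAS5 signal (horizontal axis) of the 36 large subunit and 22 small subunit genes on the operated (red), non-operated (orange) and sham (blue) array, each a single array, with genes ordered by their measured log2 ratio for operated against sham and the dotted line at the sham floor. Sham points lie to the right for most genes, with MRPL53 and MRPL24 at the bottom of the large subunit panel on the other side.

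The small subunit binds the message and reads its codons. Genes were assigned by symbol, so its 22 genes include MRPS30 and MRPS36, whose proteins are placed elsewhere as given below. Median log2 ratios of the 22 were -0.42 for operated and -0.49 for non-operated against sham. In the operated lung 20 of 22 lay below sham (background 57.7%), and in the non-operated lung 21 of 22 (background 56.6%). The 2-fold threshold was passed on the lower side by 3 genes in the operated lung (MRPS30, MRPS28 and MRPS14) and by 2 in the non-operated lung (MRPS30 and MRPS28), and 0 were 2-fold higher in either. The backgrounds were 8.79% and 8.55% on the lower side and 8.65% and 8.96% on the higher side, so counts this small lie near them.

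MRPS30, which despite its name sits in the large subunit in solved mammalian structures, had signals of 124 and 142 in the operated and non-operated lung against 489.9 in the sham lung. It was at least 3.09-fold lower in either lung, since both values lie under the floor. MRPS28 had 209 and 264 against 588 in sham and was 2.81-fold and 2.22-fold lower. MRPS14 had 758 and 794 against 1538, which is 2.03-fold and 1.94-fold lower.

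MRPS12, the counterpart of a bacterial protein at the decoding centre, had signals of 261 and 305 against 501 in sham, 1.92-fold and 1.64-fold lower. MRPS22, mutated in an inherited respiratory chain disorder in humans, had 324 and 336 against 549. MRPS24 had 1126 and 1005 against 1837. For all of these the sham value was well above both ischemia-reperfusion values, which lay closer to each other.

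MRPS10 had 1011 and 993.5 against 976 in sham, with log2 ratios of 0.05 and 0.03. MRPS36, which other work places in the 2-oxoglutarate dehydrogenase complex rather than the ribosome, had 246 and 211 against 223. Its log2 ratios were 0.14 and -0.08, on opposite sides of sham. The 11 genes numbered up to 21, which have bacterial counterparts, had medians of -0.37 and -0.46, and the 11 with higher numbers had -0.51 and -0.71. The higher numbers include MRPS30 and MRPS36. Here too the medians differed by less than the middle spread within each class. That spread was 0.22 and 0.39 for operated and 0.28 and 0.46 for non-operated against sham.

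At the inner membrane, 9 of 10 genes above the floor lay below sham in the operated lung (background 57.7%) and 8 of 10 in the non-operated lung (background 56.6%), with median log2 ratios of -0.35 and -0.31. TIMM50, the receptor that takes precursors over from the outer membrane, had signals of 180.0 and 192 in the operated and non-operated lung against 352 in the sham lung. That made it 1.96-fold and 1.83-fold lower. A second TIMM50 probe set above the floor had 172 and 160 against 371, past 2-fold at 2.15-fold and 2.31-fold lower. TIMM17B, a channel subunit of the same presequence translocase, had 215 and 242 against 391. TIMM21, which links that translocase to the TOM complex and the respiratory chain, had 521 and 614 against 714. TIMM44, the anchor of the import motor, had 115, 104 and 128 and was not measured above the floor.

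The translocase that inserts carrier proteins into the inner membrane is built around TIMM22. TIMM22 had signals of 245 in the operated, 366 in the non-operated and 287 in the sham lung, with log2 ratios against sham of -0.23 and 0.35. The operated lung was thus the lowest array for this gene and the non-operated lung the highest.

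The small TIM chaperones were not alike. TIMM9 had signals of 555 and 519 in the operated and non-operated lung against 1041 in the sham lung, 1.88-fold and 2.01-fold lower. TIMM10, the partner of TIMM9 in a chaperone ring, had 858 and 724 against 879, with log2 ratios of -0.03 and -0.28. TIMM8A, whose human gene is mutated in a deafness and dystonia syndrome, had 466 and 346 against 728, 1.56-fold and 2.11-fold lower.

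TIMM13, the partner of TIMM8A, had signals of 1091 and 964 against 1215 in the sham lung. TIMM8B had 1937 and 1871 against 2284. TIMM10B, which docks the ring on the carrier translocase, had 386 and 419 against 364. TIMM10B was the small TIM gene above sham in both lungs, by 0.08 and 0.20 on the log2 scale.

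At the outer membrane all 7 genes lay below sham in both lungs, against backgrounds of 57.7% in the operated and 56.6% in the non-operated lung. TOMM70 is above the floor in the sham lung only, so once counted it could only come out lower. Their median log2 ratios were -0.31 and -0.42, and 0 of 7 passed 2-fold, where 8.79% and 8.55% of named genes were that much lower. TOMM5, a small subunit of the TOM core, had signals of 2689 in the operated and 2289 in the non-operated lung against 4474 in the sham lung. That is 1.66-fold and 1.95-fold lower. TOMM7, another small subunit of the same core, had 2688 and 2756 against 3001, 1.12-fold and 1.09-fold lower. The core subunits thus showed unequal ratios.

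The receptor TOMM22 had signals of 2755 and 2436 in the operated and non-operated lung against 3638 in the sham lung. The receptor TOMM20 had 1248 and 1154 against 1544. TOMM70, the receptor for carrier precursors, had 132 and 91.0 against 187, with both ischemia-reperfusion values under the floor, so it was at least 1.18-fold lower in either lung.

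TOMM40L, a relative of the TOM channel protein, had signals of 229 and 194 against 358 in the sham lung, 1.56-fold and 1.85-fold lower. TOMM34, a cytosolic cochaperone that keeps precursors unfolded, had 342 and 339 against 406. The 2 lungs after ischemia-reperfusion differed by 0.01 on the log2 scale for TOMM34.

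**Figure D3:**
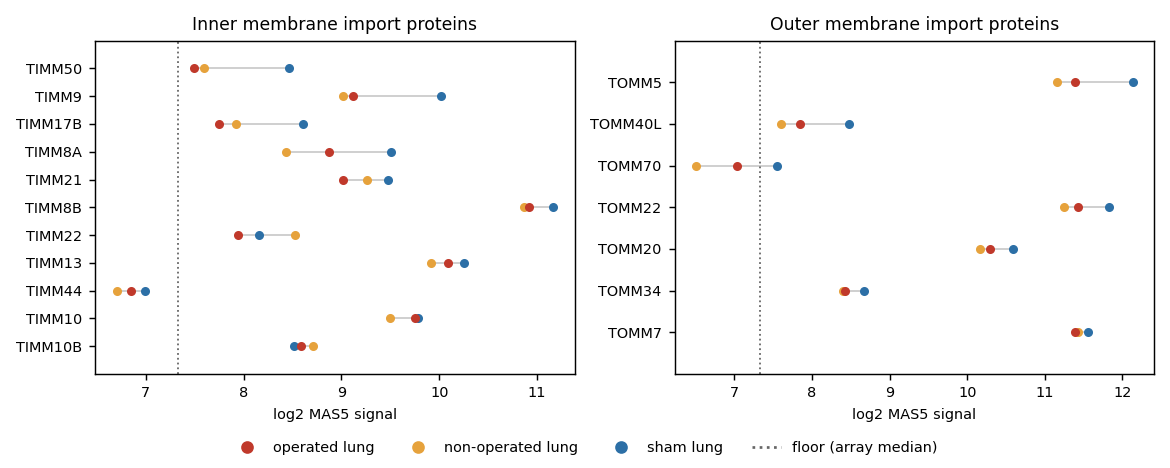
Log2 MAS5 signal (horizontal axis) of the 11 inner membrane and 7 outer membrane import genes on the operated (red), non-operated (orange) and sham (blue) array, 1 array each, ordered as in the ribosome plot, with the dotted line at the sham floor. Sham points lie farthest right for all outer membrane genes, while TIMM22 and TIMM10B depart from that order.

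Between the operated and the non-operated lung the members hardly differed. The median log2 ratio over the 76 members was 0.04 with no floor, beside -0.02 for all named genes, and 34 of 76 lay below 0 (background 53%). Of 72 members above the floor on either array, 0 were at least 2-fold lower (background 0.182%) and 0 at least 2-fold higher (background 0.0607%). The 1.5-fold threshold was passed by 0 of 72 in either direction, with backgrounds of 2.1% for lower and 1.31% for higher. The lowest ratios were TIMM22 at -0.58, MRPL1 at -0.51 and MRPL14 at -0.44. MRPL1 had signals of 592 in the operated and 845 in the non-operated lung, and MRPL14 had 733 and 994.

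On the higher side of that comparison stood MRPL17 at 0.49, TIMM8A at 0.43 and MRPL46 at 0.40. By group, the medians were 0.04 for the large subunit, 0.02 for the small subunit, -0.02 for the inner membrane and 0.15 for the outer membrane. Of 6 outer membrane genes counted, 1 had a log2 ratio below 0 (background 52.8%), and the highest were TOMM40L at 0.24 and TOMM5 at 0.23.

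Probe sets that read the same gene give the only internal measure of error, which covers neither repeat arrays nor other animals. Over 801 named genes with several probe sets above the floor on both arrays, the pooled within-gene SD of the log2 ratio was 0.39 for operated against sham, and it was 0.41 over 783 genes for non-operated against sham. The median member ratio is thus about the size of that SD, and most single members cannot be set apart from no difference by it. For operated against non-operated the SD was 0.22 over 820 genes. Among the members, 8 genes had such probe sets, and in 7 of 8 for the operated lung and 8 of 8 for the non-operated lung all lay on the same side of sham. Over all named genes with such probe sets, 589 of 801 and 570 of 783 did.

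TIMM50 had log2 ratios of -0.97 and -1.11 from its probe sets in the operated lung, and MRPL2 had -0.57 and -0.65. The gene on both sides was MRPL32, with -0.77 from one probe set and 0.07 from the other. MRPL18 had -0.32 and -1.004. Of the 99 member probe sets, 14 lay under the floor on all 3 arrays, and their ratios scattered most: a dim MRPS2 probe set was at -3.66 and a dim MRPL46 probe set at 2.25 for non-operated against sham, and a dim MRPS12 probe set was at -3.30 for operated against sham.

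**Figure D4:**
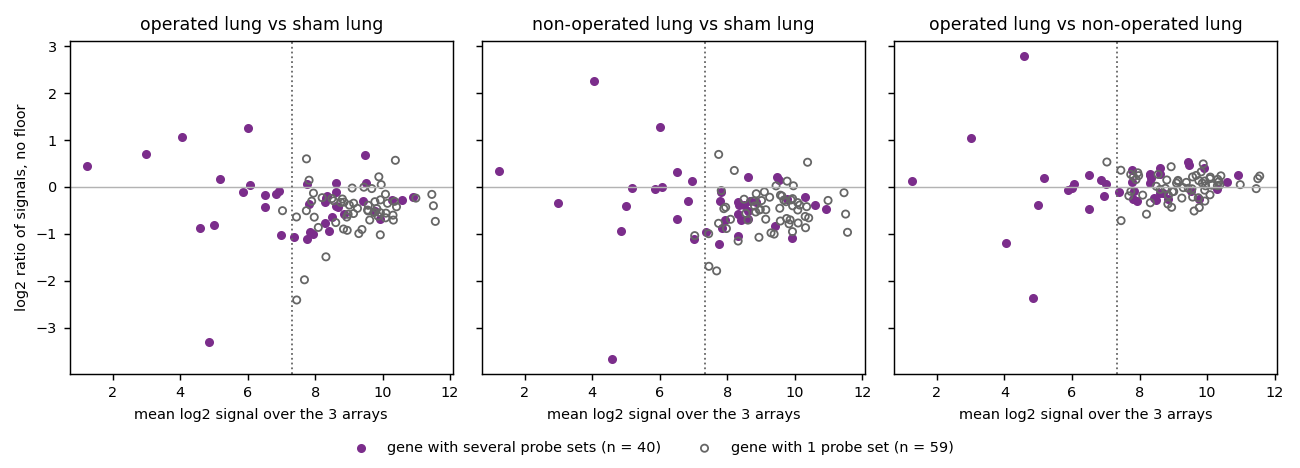
Log2 ratio of signals (vertical axis, no floor) against the mean log2 signal over the 3 arrays (horizontal axis) for the 99 member probe sets, filled where the gene has several probe sets and open where it has 1, with the dotted line at the sham floor. Ratios scatter widely left of the floor and, right of it, gather below 0 in both comparisons against sham and around 0 between the ischemia-reperfusion lungs.

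Other nuclear genes of the same pathway were read from lists. Of 4 genes for ribosomal proteins or partners under other symbols, 3 lay below sham in the operated lung (background 57.7%). In the non-operated lung all 3 that were counted did (background 56.6%). In either lung 0 were beyond 2-fold. Backgrounds were 8.79% and 8.55% on the lower side and 8.65% and 8.96% on the higher side, so for so few genes this lies near them. DAP3, a GTP-binding protein of the small subunit, had signals of 717 and 795 in the operated and non-operated lung against 1125 in the sham lung. PTCD3, another small subunit protein, had 479 and 421 against 692. CHCHD1 had 1285 and 1344 against 1643, log2 ratios of -0.36 and -0.29. GADD45GIP1 ran the other way, with 165 and 150 against 117, of which only the operated value lies above the floor. Of 13 further genes of import, sorting and processing, 12 lay below sham in the operated lung (background 57.7%) and 11 in the non-operated lung (background 56.6%). Their medians were -0.37 and -0.30, and 0 were beyond 2-fold in either lung (backgrounds on the lower side 8.79% and 8.55%). HSPE1 and HSPD1, the chaperonin pair that folds imported proteins, had log2 ratios of -0.93 and -0.58 in the operated lung and of -0.84 and -0.67 in the non-operated lung.

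Translation factors and tRNA synthetases of mitochondria had a median of -0.24 over 12 genes in the operated and -0.31 over 13 genes in the non-operated lung. The ribosome recycling factor MRRF had signals of 216 and 308 against 462 in sham and was 2.14-fold lower in the operated lung. It was the single member of that list beyond 2-fold, where 8.79% of named genes were that much lower. FARS2 and MTRF1L lay above sham in the operated lung, at 0.48 and 0.34. Assembly factors of the ribosome had medians of -0.27 and -0.35 over 10 genes. MRM2, which methylates the large mitochondrial rRNA, had signals of 411 and 405 against 1135 in sham and was 2.76-fold and 2.81-fold lower. ERAL1 and YBEY lay above sham, at 0.22 and 0.42 in the operated lung.

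Genes that copy and process mitochondrial DNA and RNA had medians of -0.40 and -0.52 over 10 genes. PNPT1, which degrades mitochondrial RNA, had signals of 268 and 306 against 683 in sham and was 2.55-fold and 2.23-fold lower. SSBP1, which coats single-stranded mitochondrial DNA, had 1051 and 1311 against 2165, 2.06-fold and 1.65-fold lower. TFAM, which packages the mitochondrial genome and helps to start its transcription, had 1851 and 1773 against 2561. The 4 mitochondrial proteases had medians of -0.47 and -0.44, with PARL 2.16-fold lower in the non-operated lung. All 4 lay below sham in both lungs (backgrounds 57.7% and 56.6%). Both ischemia-reperfusion values of OMA1, 146 and 158.1 against 217 in sham, lay under the floor, so its ratios are bounds. Of the biogenesis regulators, 3 lay above the floor, with medians of -0.08 and -0.22, and the coactivator gene PPARGC1A lay under the floor on all arrays.

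**Figure D5:**
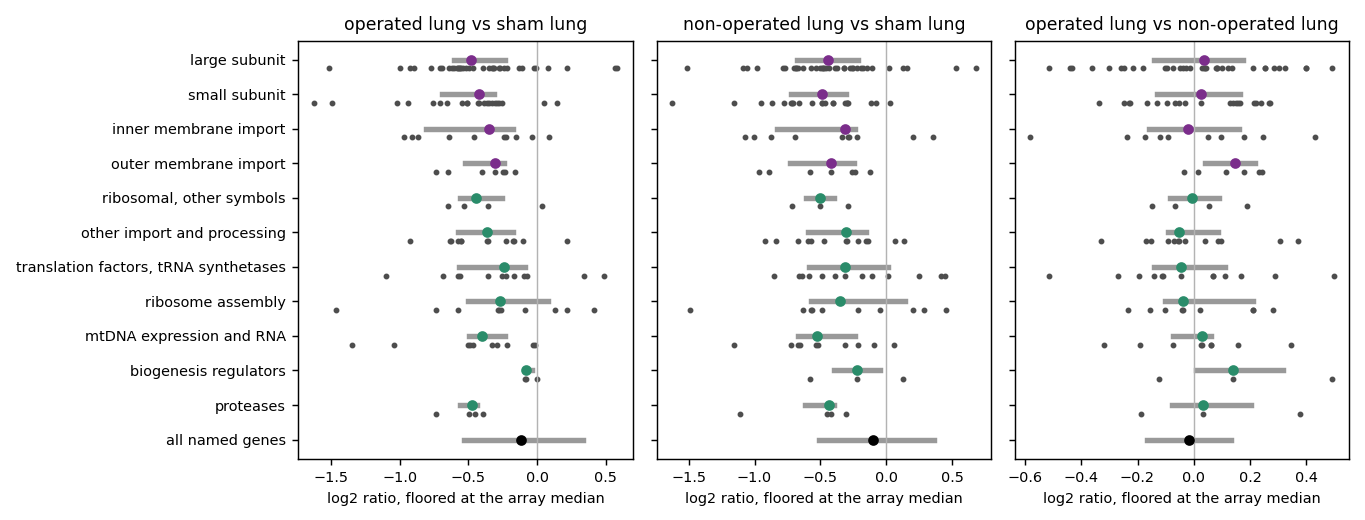
Median log2 ratio (large points) with the middle 50 percent of genes (grey bars) and single genes (small points), values floored at the array median, for the 4 member groups, 7 related lists and all named genes in the 3 comparisons. In both comparisons against sham all member groups have medians between -0.31 and -0.49, left of the all-gene medians of -0.11 and -0.10.

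Markers of dividing cells and of several lung cell types also differed from sham, by larger amounts apart from the alveolar type 2 markers. For these the median log2 ratio was 0.67 in the operated and 0.12 in the non-operated lung. Their summed signals were 130.9% and 123.0% of sham. Of 12 dividing cell markers listed, 9 are named on the array, and all 9 were at least 2-fold lower than sham in either lung (backgrounds 8.79% and 8.55%). Their summed signal was 3983 in the operated lung and 4687 in the non-operated lung, against 22128 in the sham lung. B and plasma cell markers (5 of 9 named on the array) summed to 2342 and 1971 against 9817, and T and NK cell markers (8 of 9, with CD4 under the floor on all arrays) to 2466 and 2705 against 5110. Within the T and NK list GNLY ran the other way, with 335.0 and 485 against 130.2, at least 2.09-fold and 3.02-fold higher. Endothelial markers (9 of 9, with KDR under the floor) summed to 26844 and 29659 against 8938, and macrophage markers (4 of 6) to 15500.1 and 14896 against 3337. Alveolar type 1 markers (6 of 7) summed to 34755 and 34379 against 12484, alveolar type 2 markers (5 of 8) to 46606 and 43816 against 35609, and neutrophil markers (4 of 6, with ELANE under the floor) to 6739 and 8293 against 1083. None of these markers was at 0 on the log2 scale. The part of these differences in the lower signals of the mitochondrial ribosome and import genes was not tested, and in whole tissue fewer cells of a type and less RNA per cell cannot be told apart.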

How the data were processed

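Total RNA of 3 lung samples was amplified with a 3' in vitro transcription kit and hybridised to Affymetrix porcine arrays, per the labels' protocols. The authors deposited 1 log2 value per probe set and array, made with MAS5 per the submitters' processing notes; the sources used here do not give the MAS5 version, the scaling target or detection calls. The trimmed mean signal (2% from each end) was 497 for the operated, 497 for the non-operated and 496 for the sham array, so no further scaling was applied. Of 23999 probe sets, 64 controls were left out. Genes were named from the platform annotation; 10069 probe sets had 1 gene, 198 had several and were not named, and 13668 are unnamed here. By gene identifier 98 of 99 member probe sets matched the RefSeq table of Sscrofa11.1, all but that of MRPS25. A comparison counted each gene that exceeded the floor on either array, and values under the floor were set to it. A fold from such a value is a lower bound. Ratios were computed with pandas 2.3.3 and numpy 2.4.6 in Python 3.11.15. The code was run on simulated copies of the sham array with known ratios added to bright genes. That run covers the arithmetic only, not the error of the arrays or the behaviour of dim genes. The number of arrays limits the precision.

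Members, lists and alternatives were chosen with earlier results of these data known. Within each role group the named genes are those beyond 2-fold, the lowest and highest ratios measured on both sides and the brightest gene. Exceptions are MRPS21, the brightest small subunit gene, and MRPS2, MRPS23 and MRPS35, picked for operated against non-operated. Gene values of these are not given above. Small TIM and TOM proteins are described whole, and other members named beside them were chosen after their values were seen. From each pathway list, genes beyond 2-fold are named, and the others were chosen after their values were seen. Alternatives were 3 other scalings, other floors, a pseudocount of 50, other ways to combine probe sets and a 1.5-fold threshold.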

Additional observations from a re-analysis of the deposited data

How the results depend on the processing

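The direction of the median held in all 3 comparisons under every alternative. For operated against sham it ran from -0.44 to -0.31, for non-operated against sham from -0.46 to -0.33 and for operated against non-operated from 0.03 to 0.06. Centring each comparison on the median of all named genes, which had been -0.11 and -0.10 against sham, left member medians of -0.31 and -0.35. The counts moved more. With a floor at the 75th percentile only 44 members were counted in each comparison against sham, and 1 was at least 2-fold apart in either lung. Among all named genes 427 of 3260 were that far apart in the operated and 439 of 3275 in the non-operated lung. Of the 44 members, 40 lay below sham in the operated and 39 in the non-operated lung, while 14 of 36 lay below 0 between the lungs. The share of all named genes on the lower side was not computed for this floor. Besides the smaller number counted, TIMM8A and TIMM9 were still counted in the non-operated lung but came under 2-fold, at -0.29 and -0.80, as their values under that floor were raised to it. With 1.5-fold in place of 2-fold, 23 and 27 members were apart from sham in the operated and non-operated lung. The backgrounds were 21.7% and 21.4% on the lower side and 16.7% and 17.5% on the higher side. The 7 members beyond 2-fold in the non-operated lung became 3 after centring and 4 with a pseudocount of 50. Under these settings 887 and 870 of 5113 named genes were beyond 2-fold. An alternative chosen after seeing the data kept the 70 members above the floor on all 3 arrays. It left 2 beyond 2-fold in the operated and 5 in the non-operated lung. Of all named genes so restricted, 732 and 733 of 4489 were beyond it. Of the genes beyond 2-fold, MRPL35 and MRPL32 in the non-operated lung were at -0.34 and -0.67 when their probe sets were averaged. For MRPL35 the average takes in probe sets under the floor on all 3 arrays, and its bright probe set alone gave -1.09. No paired analysis was possible because each group holds 1 array. Low signal limits MRPL4, MRPS30, MRPL24, MRPL54, TOMM70 and TIMM44.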

Other observations

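A few probe sets read ribosomal genes but carry several gene entries and were kept out of the members. The probe set listed for 2 gene entries of MRPL22 had signals of 794 in the operated and 754 in the non-operated lung against 1224 in the sham lung, log2 ratios of -0.63 and -0.70. The 5 probe sets listed for MRPL55 together with C2H1orf35 did not move together. One had signals of 810 and 922 against 1386 in sham (log2 ratios of -0.78 and -0.59), while the other 4 had log2 ratios between -0.10 and 0.13 in the operated lung and between 0.16 and 0.47 in the non-operated lung.

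In the RefSeq table of Sscrofa11.1, MRPS11 and MRPL46 are neighbours, the 1 pair of members next to each other. MRPS11 had signals of 539 and 489 in the operated and non-operated lung against 685 in the sham lung. MRPL46 had 418 and 317 against 451. Both had their lowest signal in the non-operated lung and their highest in the sham lung, an order that many other members shared.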
